A study of Mus musculus with 9 samples.

Results

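Fabp3, Fabp4, Fabp5 and Fabp7 are 4 genes of the fatty acid binding protein family, and their RNA was followed in 3 kinds of mouse neurosphere, which are free-floating colonies of neural progenitors. The members were all probe sets that the platform annotation gives to these symbols, 9 of 45037 probe sets without controls and 4 of 18193 named genes. Fabp4 had 4 probe sets, Fabp3 and Fabp5 had 2 each and Fabp7 had 1. The spheres were at passage 3, came from C57BL/6J embryos of embryonic day 12.5, and all grew with bFGF and EGF at 20 ng/ml each. BMP NCSC came from dorsal root ganglia (DRG, the sensory ganglia built by the neural crest) with BMP4, a bone morphogenetic protein, added at 10 ng/ml. rNCSC came from DRG without BMP4, and SCSC came from spinal cord without BMP4. Each kind of sphere had 3 Affymetrix arrays. Nothing in the labels tells if each array had its own embryos or culture, so errors and p-values measure the spread between these arrays, which may be technical. The number of arrays limits the precision.

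Fatty acid binding proteins are small proteins of the cytoplasm that hold long-chain fatty acids in a barrel-shaped pocket and carry them between membranes, enzymes and nuclear receptors. Fabp7, the brain lipid-binding protein, prefers polyunsaturated fatty acids such as docosahexaenoic acid and marks radial glia, the progenitors and guide cells of the embryonic nervous system, as well as immature glia of peripheral nerve and ganglia. Fabp5, the epidermal form, occurs in skin and in neural progenitors and neurons. Fabp3 is the form of heart and skeletal muscle and occurs in mature neurons. Fabp4 is the form of adipocytes, macrophages and capillary endothelium, and is a target of the nuclear receptor Pparg.

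The promoter of Fabp7, the gene of the 4 with the greatest difference between groups, is shown with that of Fabp3, whose better detected probe set overlapped in every comparison. Each sequence is the 250 bases before the gene's start, from RefSeq on build GRCm38.p6, and 2 of the 4 genes were in that promoter table. The Fabp7 stretch is chr10:57784673-57784922 and the Fabp3 stretch chr4:130308488-130308737, both on the plus strand. Capitals mark matches to the letters searched, on either strand. A site of RBPJ, the protein that brings Notch signals to DNA, was searched as TGGGAA. The second motif was the CCAAT box itself, which lies before the start of many genes. A GC-rich site of the SMAD proteins, the factors that carry BMP signals into the nucleus, was searched as GGCGCC. An octamer of the POU factors (ATGCAAAT), a box of the TATA-binding protein (TATAAA) and the direct repeat of the peroxisome proliferator receptors were also searched and had no match in either stretch.
Fabp7: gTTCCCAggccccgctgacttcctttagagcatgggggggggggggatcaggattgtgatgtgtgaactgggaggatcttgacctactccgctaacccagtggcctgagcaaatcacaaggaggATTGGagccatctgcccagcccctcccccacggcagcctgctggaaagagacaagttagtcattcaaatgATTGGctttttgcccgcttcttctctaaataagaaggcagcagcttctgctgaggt
Fabp3: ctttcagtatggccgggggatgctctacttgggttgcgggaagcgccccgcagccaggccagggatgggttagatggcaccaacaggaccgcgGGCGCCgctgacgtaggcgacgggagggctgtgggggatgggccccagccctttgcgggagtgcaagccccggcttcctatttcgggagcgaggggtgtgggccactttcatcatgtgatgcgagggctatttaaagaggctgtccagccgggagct
In Fabp7 the RBPJ letters lay on the minus strand at 249 to 244 bases before the start, and 2 CCAAT boxes lay on the minus strand at 126 to 122 and 56 to 52. In Fabp3 the GC-rich SMAD letters lay at 157 to 152. None of these matches overlapped another. Of 32851 mouse promoters of the same length, 21.6% held the RBPJ letters, 33.8% a CCAAT box, 9.59% the SMAD letters, 12.4% the TATA box, 1.60% the octamer and 0.0335% the direct repeat. These matches describe the letters and were not set against any binding data.

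The 4 genes were taken up with their levels in these groups already known, so the differences among the groups are given as descriptions with no p-value. All values are log2 GCRMA values as deposited. The 9 arrays had medians of 3.985 to 4.029, and the highest value in the table was 14.592. A value below about 4 lies in the range where this method collects transcripts that are not detected, so the size of a difference that involves such a value is uncertain. Arrays of a group were not equally alike. BMP NCSC replicate 3 lay at least 1 above both other BMP NCSC arrays for 208 of 18193 genes (1.14%) and at least 1 below both for 147. The same counts were 281 and 135 for rNCSC replicate 3, whereas those of the SCSC arrays were at most 25 and 12. The results for the 4 genes are therefore also given without these replicates.

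Fabp7 was among the most abundant signals on the arrays of rNCSC and SCSC and lay in the undetected range in BMP NCSC. It ranked second from the top among 45037 probe sets by its mean in rNCSC and in SCSC. It read 2.86, 2.97 and 3.32 in BMP NCSC, against 14.46, 14.47 and 14.39 in rNCSC and 14.44, 14.44 and 14.45 in SCSC. The 3 BMP NCSC arrays lay far below the other 6, and rNCSC and SCSC overlapped. BMP NCSC minus rNCSC was -11.39 (SE 0.12), BMP NCSC minus SCSC was -11.40 (SE 0.12) and rNCSC minus SCSC was -0.01 (SE 0.12). Without BMP NCSC replicate 3 the first of these was -11.52, and without rNCSC replicate 3 it was -11.41. The rNCSC and SCSC values lie so close to the top of the scale, with an SD of 0.042 and 0.0023 (n = 3 each), that a difference between these groups could be compressed there. Fewer cells with Fabp7 RNA and less Fabp7 RNA per cell cannot be told apart in these bulk samples.

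Fabp5 was abundant in all 3 groups and lower in BMP NCSC by both of its probe sets. The first probe set, 1416021_a_at, read 11.18, 11.60 and 12.10 in BMP NCSC, against 13.68, 13.60 and 13.41 in rNCSC and 13.40, 13.66 and 13.55 in SCSC. The second, 1416022_at, read 9.84, 10.11 and 10.81 in BMP NCSC, against 13.04, 12.87 and 12.60 in rNCSC and 12.51, 12.98 and 12.74 in SCSC. In both, every BMP NCSC array lay below every rNCSC and SCSC array, and rNCSC overlapped SCSC. Against rNCSC the log2 difference of BMP NCSC was -1.94 (SE 0.21) and -2.58 (SE 0.25), which is 3.83-fold and 5.99-fold lower on the linear scale. Against SCSC it was -1.91 (SE 0.21) and -2.49 (SE 0.25), or 3.76-fold and 5.62-fold lower. rNCSC minus SCSC was 0.03 (SE 0.21) and 0.09 (SE 0.25). Without BMP NCSC replicate 3, the BMP NCSC array nearest to the other groups, the first probe set differed by -2.17 from rNCSC and by -2.14 from SCSC. Without rNCSC replicate 3 it differed by -2.02 from rNCSC. Unlike Fabp7, Fabp5 stayed well above the undetected range in BMP NCSC. RefSeq lists a Fabp5 pseudogene, and whether these probe sets also detect it was not tested.

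Fabp3 was at a modest level in all 3 groups, and no pair of groups was separated by the probe set that passed the filter. That probe set, 1416023_at, read 5.62, 6.64 and 5.67 in BMP NCSC, against 5.52, 6.71 and 5.08 in rNCSC and 5.85, 5.50 and 5.86 in SCSC. Replicate 2 was the highest array in BMP NCSC and in rNCSC and the lowest in SCSC. BMP NCSC minus rNCSC was 0.20 (SE 0.42), BMP NCSC minus SCSC was 0.24 (SE 0.42) and rNCSC minus SCSC was 0.04 (SE 0.42), so differences of a size near that error could not be seen here. The first of these was 0.36 without BMP NCSC replicate 3 and -0.14 without rNCSC replicate 3. The second probe set, 1444844_at, read 3.60 to 3.97 over the 9 arrays, in the undetected range.

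Fabp4 was at the lower end of the scale in rNCSC and SCSC and ranged from low to high among the 3 BMP NCSC arrays. Probe set 1417023_a_at read 4.30, 7.39 and 11.81 in BMP NCSC, against 2.45, 2.37 and 2.49 in rNCSC and 2.30, 2.55 and 2.34 in SCSC. Probe set 1451263_a_at read 4.39, 7.64 and 11.56 in BMP NCSC, against 2.14, 1.95 and 2.0 in rNCSC and 2.10, 2.30 and 1.77 in SCSC. The 2 probe sets followed each other within 0.25 on every BMP NCSC array, and every BMP NCSC array lay above all 6 others. Their ranges within BMP NCSC, 7.52 and 7.17, were the widest and second widest of all 45037 probe sets. For 1417023_a_at, BMP NCSC averaged 7.83 ± 3.8, against 2.43 ± 0.06 in rNCSC and 2.39 ± 0.13 in SCSC (SD, n = 3 each). The difference from rNCSC was 5.40 with all arrays, 3.41 without BMP NCSC replicate 3 and 5.42 without rNCSC replicate 3, and rNCSC minus SCSC was 0.04. The 2 further probe sets of Fabp4, 1424155_at and 1425809_at, read 2.32 to 3.41 on all 9 arrays, so the 4 probe sets of the gene disagree. No Fabp4 probe set passed the filter used for testing, which asked for a value of 5 on at least 3 arrays, since only replicates 2 and 3 of BMP NCSC reached 5.

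**Figure D1:**
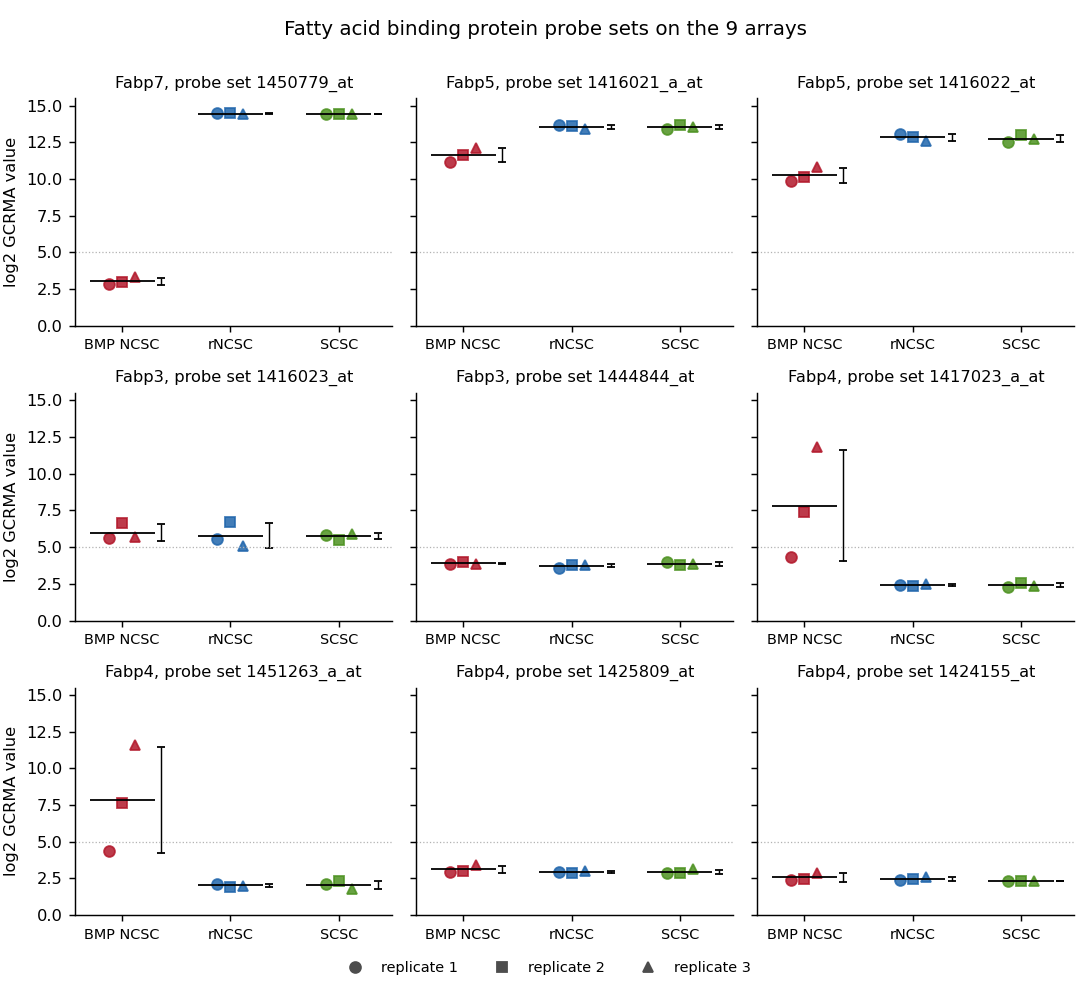
Log2 GCRMA values (vertical axes) of probe sets of Fabp7, Fabp5, Fabp3 and Fabp4 on each array of BMP NCSC, rNCSC and SCSC (horizontal axes), 1 panel per probe set, with points for arrays, horizontal lines for the mean of 3 arrays, bars for the SD and a dotted line at the filter value of 5. Fabp7 lies at 2.86 to 3.32 in BMP NCSC and at 14.39 to 14.47 in rNCSC, Fabp5 is lower in BMP NCSC, Fabp3 overlaps, and Fabp4 spreads from 4.30 to 11.81 in BMP NCSC.

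Over the 9 probe sets, the 3 arrays of BMP NCSC did not overlap those of rNCSC in 6, where 55.4% of all probe sets did not. They did not overlap SCSC in 6, where 56.8% did not. rNCSC and SCSC did not overlap in 1, the Fabp4 probe set 1424155_at at 2.37 to 2.63 in rNCSC and 2.32 to 2.36 in SCSC, where 14.5% did not. Nothing is read from these counts, since the genes were chosen on the same contrasts. Of the 9 probe sets 4, from 3 of the genes, passed the filter. The nearest to its limit on the inside was Fabp7, which reached 5 on 6 arrays, and those nearest on the outside were the 2 Fabp4 probe sets that reached 5 on 2 arrays.

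Over the BMP NCSC arrays, Fabp4 was lowest on replicate 1 and highest on replicate 3, an order that 2783 of 18193 genes (15.3%) shared and 241 (1.32%) shared over a range of at least 1. Of the 24 uptake genes measured 5 had the order and 2, Lpl and Cd36, had it over that range. Of 26 storage and adipocyte genes 6 had the order and 1, Adipoq, had it over that range. The order was not particular to these lists. Of 24 radial and astroglial genes 6 had it and 2, Slc1a3 and Ednrb, had it over that range. Of 17 Schwann and satellite glial genes 5 had it and 1, Gap43, had it over that range. Among 10 other lipid-binding proteins of the family 2 had it and 1, Crabp1, had it over that range. Of 30 synthesis genes 9 had it and of 27 oxidation genes 1, none over that range. These are descriptions with no test, because the arrays are replicates of 1 group. Lpl, the lipase that frees fatty acids from circulating triglyceride, read 4.90, 6.82 and 10.71 in BMP NCSC, against 7.93, 8.30 and 8.53 in rNCSC and 7.39, 7.53 and 7.57 in SCSC. The adipocyte hormone gene Adipoq read 2.95, 4.43 and 8.61 in BMP NCSC. The fatty acid transporter gene Cd36 read 2.80, 3.29 and 6.41 in BMP NCSC, against 2.78, 3.37 and 4.87 in rNCSC. Fabp5 and Fabp7 had the same order over far narrower ranges. Plin2, which coats lipid droplets, read 9.81, 9.54 and 9.54 on these arrays, and Cebpa, a transcription factor of fat cells, read 5.78, 5.84 and 5.81. Pparg read 4.01, 4.59 and 4.89, under the filter, against 3.19, 3.01 and 3.09 in rNCSC. Wide genes of no fat list had this order too, such as the neuropeptide gene Vip at 4.91, 8.69 and 9.47 and the synaptotagmin gene Syt4 at 3.99, 5.90 and 8.41. Others did not, such as the collagenase gene Mmp13 at 3.70, 3.05 and 9.71 and the Wnt inhibitor gene Dkk1 at 10.07, 11.28 and 6.15. Adipoq, Cebpa, Vip, Syt4, Mmp13 and Dkk1 were chosen after their values were seen.

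Fabp4 is also expressed by other cell types, and their defining markers were examined on the same arrays. Of 14 endothelial genes measured 2 passed the filter, Egfl7 and Plvap, while Pecam1 read 2.55 to 2.71 in BMP NCSC and Cdh5 read 2.80 to 3.12. Egfl7 averaged 7.49 ± 0.39 in BMP NCSC and 4.97 ± 0.16 in rNCSC and was higher by 2.52 (SE 0.19, adjusted p = 3.2e-06), although another of its tested probe sets was not called. Plvap averaged 4.72 ± 0.77 in BMP NCSC and 6.59 ± 0.83 in rNCSC and was lower (difference -1.87, SE 0.46, adjusted p = 0.005). Erg, a transcription factor of endothelium under the filter, read 6.01, 5.19 and 3.40 in BMP NCSC, against 2.52, 2.44 and 2.64 in rNCSC, so it did not follow Fabp4 over the BMP NCSC arrays. Erg and Plvap were named after their values were seen. The part of these genes' cells in the Fabp4 values was not tested. The mean of that list per array was 3.45 to 3.64 in BMP NCSC, 3.26 to 3.47 in rNCSC and 3.32 to 3.43 in SCSC. Of 15 macrophage genes measured 1 passed, the lysozyme gene Lyz2 at 6.22, 6.00 and 5.86 in BMP NCSC, which did not follow Fabp4. In rNCSC Lyz2 read 3.36, 3.46 and 3.45. It passed only through BMP NCSC, which fixed its direction. Csf1r, the receptor that defines macrophages, read 3.57 to 3.64 in BMP NCSC and Tyrobp read 2.78 to 2.89. Cd14, under the filter, read 4.57, 4.54 and 5.17 in BMP NCSC, against 3.40, 3.59 and 3.63 in rNCSC. Adgre1, also under it, read 3.60, 3.66 and 4.16, against 3.25, 3.39 and 3.22. Cd14 and Adgre1 were named after their values were seen. In this list 3 of the 15 genes had the order of Fabp4 over the BMP NCSC arrays, none over a range of at least 1. The macrophage list averaged 3.25 to 3.39 per array in BMP NCSC, 3.05 to 3.07 in rNCSC and 3.00 to 3.12 in SCSC. For cardiac and skeletal muscle, the tissues of Fabp3, 1 of 15 genes measured passed the filter. This was the troponin gene Tnnc1, which averaged 5.57 ± 0.30 in BMP NCSC and 3.47 ± 0.12 in rNCSC and was higher by 2.11 (SE 0.15, adjusted p = 2.5e-06). It passed only through BMP NCSC, which fixed its direction. Tnnt2, another troponin gene, read 6.34, 6.32 and 3.93 in BMP NCSC, against 2.15, 2.09 and 2.62 in rNCSC. Both were named after their values were seen. The muscle list had means per array of 3.57 to 3.71 in BMP NCSC, 3.37 to 3.42 in rNCSC and 3.37 to 3.48 in SCSC. For keratinocytes, which express Fabp5, 1 of 11 genes passed, with list means of 3.69 to 3.82, 3.69 to 3.81 and 3.63 to 3.86 in the same order of groups.

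**Figure D2:**
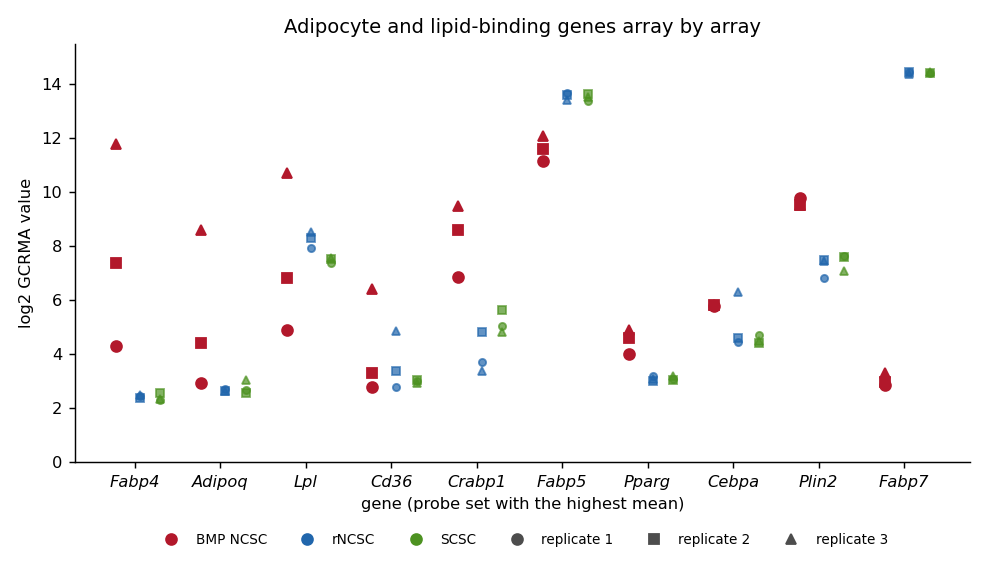
Log2 GCRMA values (vertical axis) of 10 genes (horizontal axis) on each array of BMP NCSC, rNCSC and SCSC, with colour for the group and point shape for the replicate. In BMP NCSC, Fabp4, Adipoq, Lpl, Cd36, Crabp1, Fabp5, Pparg and Fabp7 are lowest on replicate 1 and highest on replicate 3. Plin2 and Cebpa lie within 0.27 over the 3 arrays.

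Fabp4 and Fabp5 are neighbours on chromosome 3, in a cluster that runs Fabp5, Pmp2, Fabp9, Fabp4 and Fabp12 with 2 further loci between Fabp5 and Pmp2. Fabp7 lies on chromosome 10 and Fabp3 on chromosome 4. The cluster did not move together: BMP NCSC was lower in Fabp5 and higher in Fabp4, while the genes between and beside them stayed at the lower end of the scale. Pmp2, the myelin form, averaged 2.77 in BMP NCSC, 2.87 in rNCSC and 2.80 in SCSC. Fabp9 averaged 2.71, 2.83 and 2.71 and Fabp12 averaged 3.23, 3.39 and 3.32 in the same groups. Of 10 other lipid-binding proteins of the family that were measured, 1 passed the filter, the retinoic acid carrier gene Crabp1. It read 6.87, 8.59 and 9.48 in BMP NCSC, against 3.73, 4.84 and 3.38 in rNCSC and 5.04, 5.65 and 4.83 in SCSC. Crabp1 was higher in BMP NCSC than in rNCSC by 4.33 (SE 0.63, adjusted p = 0.00024) and than in SCSC by 3.14 (SE 0.63, adjusted p = 0.0017). It passed the filter through BMP NCSC and SCSC arrays, so its direction against rNCSC was bound to that.

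The genes whose pattern over the 9 arrays was most like that of each member were found by the root mean square distance between profiles centred on their own means, among 10316 genes. For Fabp7 these were Olig1 (0.21 log2 units) and Olig2 (0.40), transcription factors of the oligodendrocyte lineage, Zic1 (0.71), a transcription factor of the dorsal neural tube, Gpm6a (0.94), a neuronal membrane glycoprotein, and Grm5 (1.01), a glutamate receptor. All 5 averaged at most 3.85 in BMP NCSC and at least 11.07 in rNCSC and SCSC. For Fabp5 they were Elovl6 (0.15), an elongase of long-chain fatty acids, Glrx (0.15), a glutaredoxin, Klhl23 (0.16), Stard4 (0.18), a cholesterol carrier, and Mpdu1 (0.18). Elovl6 averaged 8.84 in BMP NCSC, 10.79 in rNCSC and 10.81 in SCSC. For Fabp3 they were Dhrs4 (0.31), Cmip (0.33), Dusp3 (0.33), Castor2 (0.34) and Tuba4a (0.35). Small distances among flat profiles such as that of Fabp3 say little, and Fabp4 was under the filter and was not searched.

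The factors reported to act on Fabp7 were tested next, with limma over 19914 probe sets and all 9 arrays. Calls needed an adjusted p below 0.05 and a log2 difference of at least 1, each gene standing by its probe set of highest mean. By that rule 22.6% of 10319 tested genes were higher and 21.3% lower in BMP NCSC than in rNCSC, and 22.9% were higher and 24.0% lower in BMP NCSC than in SCSC. Over all probe sets tested the shares were 20.6% and 21.8% against rNCSC and 21.3% and 23.8% against SCSC. Both comparisons share the BMP NCSC arrays. Of 16 regulators 2 were higher and 7 lower against rNCSC, with a median difference of -0.54 beside -0.07 over all tested genes. Against SCSC 2 were higher and 6 lower. Pax6, a transcription factor of radial glia, averaged 2.25 ± 0.082 in BMP NCSC and 8.61 ± 0.33 in rNCSC, a difference of -6.36 (SE 0.20, adjusted p = 2e-08). The POU factor genes Pou3f3 (-4.46, SE 0.20, adjusted p = 1.5e-07) and Pou3f2 (-1.79, SE 0.13, adjusted p = 2.9e-06) and the Notch target Hes5 (-4.62, SE 0.58, adjusted p = 9.6e-05) were also lower than in rNCSC. Hes5 read 8.69, 8.73 and 6.30 in rNCSC, so replicate 3 stood apart there.

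The Notch pathway genes of the list did not all move the same way, and the part of Notch signals in the Fabp7 values was not tested. Rbpj averaged 10.04 ± 0.11 in BMP NCSC and 9.58 ± 0.016 in rNCSC, a difference of 0.46 (SE 0.09, adjusted p = 0.0015) that was under the size limit. The receptor gene Notch1 differed by -0.56 (SE 0.15, adjusted p = 0.0087), also under it, and Notch2 was higher by 1.40 (SE 0.18, adjusted p = 0.00011). Other genes of the list were lower. Notch3 averaged 6.04 ± 0.25 in BMP NCSC and 7.57 ± 0.48 in rNCSC, and Hes1 averaged 6.74 ± 0.64 and 8.16 ± 0.39. Notch3 and Hes1 were named after their values were seen. Among the nuclear factor I genes, Nfic was higher by 2.27 (SE 0.21, adjusted p = 1.4e-05) and Nfia was not called, at -0.18 (SE 0.09, adjusted p = 0.091). Of the 16 regulators Pax6, Hes5 and Pou3f2 had means under 4 in BMP NCSC and were tested on the strength of the other groups, which fixed their direction.

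Fabp7 was then set beside other genes of radial glia and of peripheral glia, since it marks immature cells of both. Of 21 radial and astroglial genes 15 were lower and 1 higher in BMP NCSC, against rNCSC and likewise against SCSC, with medians of -2.74 and -3.69. Over all tested genes 21.3% were lower and 22.6% higher against rNCSC, and 24.0% and 22.9% against SCSC. The higher one of the list was S100b, which peripheral glia express too and which is also in the list below. Ptprz1, a receptor phosphatase, differed from rNCSC by -7.97 (SE 0.36, adjusted p = 1.5e-07) and Ednrb, the endothelin receptor, by -7.87 (SE 0.44, adjusted p = 5.7e-07). Slc1a3, the glial glutamate transporter, read 7.13, 8.01 and 9.73 in BMP NCSC, against 12.64, 12.27 and 12.82 in rNCSC. The nestin gene Nes was lower (difference -2.74, SE 0.16, adjusted p = 6.3e-07) but averaged 7.61 ± 0.23 in BMP NCSC, above the filter value. The list has 7 tested genes with a group mean under 4, namely Ednrb, Acsbg1, Hes5, Prom1, Hopx, Mlc1 and Aldh1l1. They stayed under 5 on every BMP NCSC array and passed the filter only through rNCSC and SCSC, which fixed their direction.

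Of 17 Schwann and satellite glial genes measured, 12 passed the filter, several of them through BMP NCSC, where Fabp7 was low. Of these 12, 8 were higher and 3 lower in BMP NCSC than in rNCSC, and the same counts held against SCSC. Over all tested genes 22.6% were higher and 21.3% lower against rNCSC, and 22.9% and 24.0% against SCSC. The median difference from rNCSC was 3.88 over the tested genes and 0.73 over all 17. Those under the filter were Mbp, Dhh, Gfra3, Foxd3 and Mal, at 3.36 to 4.37 in BMP NCSC on average. The neuregulin receptor gene Erbb3 averaged 11.81 ± 0.18 in BMP NCSC and 3.08 ± 0.22 in rNCSC (difference 8.73, SE 0.14, adjusted p = 5.4e-10). Sox10, the factor that defines crest-derived glia, averaged 11.56 ± 0.22 in BMP NCSC and 4.14 ± 0.17 in rNCSC (difference 7.42, SE 0.15, adjusted p = 1.5e-09). Sox10 and Erbb3, defining markers of the crest lineage, were thus low in the DRG spheres grown without BMP4, as in SCSC (4.05 ± 0.15 and 3.17 ± 0.042). The lower ones were Gap43, Ncam1 and Cnp, of which the growth cone gene Gap43 differed by -5.33 (SE 0.77, adjusted p = 0.00023) from rNCSC. Here 3 genes against rNCSC and 4 against SCSC had a group mean under 4. Sox10 and Erbb3 stayed under 5 on every rNCSC and SCSC array. They passed the filter only through BMP NCSC, as did others of the 8, which fixed their direction.

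**Figure D3:**
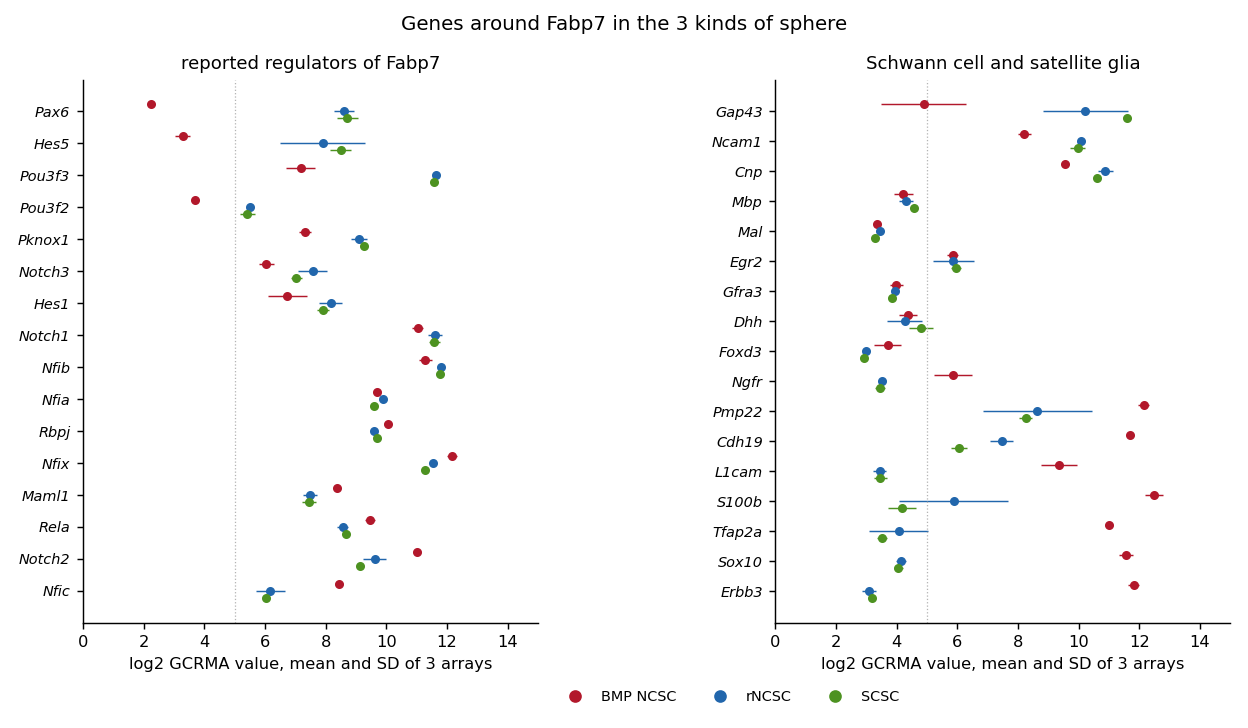
Mean log2 GCRMA value (horizontal axis, bars for the SD of 3 arrays) of the reported regulators of Fabp7 and of Schwann and satellite glial genes (vertical axes) in BMP NCSC, rNCSC and SCSC, with a dotted line at the filter value of 5. Pax6 and Hes5 are at 2.25 and 3.28 in BMP NCSC, and Sox10 and Erbb3 are at 11.56 and 11.81 there.

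The genes that supply, build and use fatty acids did not move in 1 direction beside the 4 carriers. Calls both ways were common over all tested genes too. Of these, 22.6% were higher and 21.3% lower in BMP NCSC than in rNCSC, and 22.9% higher and 24.0% lower than in SCSC. These shares stand beside the counts of each fatty acid list here and below, and mixed calls are not particular to the lists. For uptake and activation, 7 of 18 tested genes were higher and 6 lower in BMP NCSC than in rNCSC, and 5 were higher and 6 lower than in SCSC. Acsbg1, an acyl-CoA synthetase of brain, was also in the undetected range in BMP NCSC alone: it read 1.99, 1.95 and 2.06 in BMP NCSC and averaged 9.93 ± 0.029 in rNCSC and 9.94 ± 0.087 in SCSC, with a difference from rNCSC of -7.93 (SE 0.09, adjusted p = 9.2e-11). The transporter gene Slc27a1 differed from rNCSC by -2.51 (SE 0.21, adjusted p = 7.1e-06). Acsbg1 and Slc27a1 stayed under 5 on every BMP NCSC array and passed the filter through the other groups, which fixed their direction. Of the 18 genes 3 had a group mean under 4 in each comparison. Cav1, the coat protein of caveolae, was higher by 5.57 (SE 0.62, adjusted p = 4.3e-05) and the lipoprotein receptor gene Lrp1 by 3.60 (SE 0.30, adjusted p = 7.3e-06). Acsl3, another acyl-CoA synthetase gene, averaged 11.52 ± 0.16 in BMP NCSC and 11.17 ± 0.12 in rNCSC and was not called (adjusted p = 0.019, difference 0.35). Dbi, which carries acyl-CoA as the binding proteins carry free fatty acids, read 13.04, 12.99 and 12.97 in BMP NCSC, against 13.77, 13.82 and 13.93 in rNCSC, a difference of -0.84 (SE 0.08, adjusted p = 2.1e-05) under the size limit. Lpl, with its spread in BMP NCSC, was not called (-0.78, SE 1.18, adjusted p = 0.57).

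Of 24 genes of fatty acid synthesis, elongation and desaturation 4 were higher and 5 lower in BMP NCSC than in rNCSC, with a median of -0.40, and 4 were higher and 7 lower than in SCSC, with a median of -0.43. The lower ones included Elovl2 and Fads2, genes of polyunsaturated fatty acid synthesis. The elongase gene Elovl2 averaged 2.76 ± 0.17 in BMP NCSC and 9.99 ± 0.15 in rNCSC (difference -7.23, SE 0.15, adjusted p = 2.1e-09). Elovl4 differed by -4.59 (SE 0.21, adjusted p = 1.7e-07) and the desaturase gene Fads2 by -2.01 (SE 0.27, adjusted p = 0.00013). Fads3, a related desaturase gene, was higher by 3.09 (SE 0.19, adjusted p = 9.1e-07), and the malic enzyme gene Me1 was higher by 2.29 (SE 0.20, adjusted p = 9.1e-06). Elovl2 and Elovl4 passed the filter only through rNCSC and SCSC, and Fads3 only through BMP NCSC, which fixed their directions. The main synthase gene Fasn was not called against rNCSC (-0.87, SE 0.20, adjusted p = 0.0038) and was lower against SCSC (-1.17, SE 0.20, adjusted p = 0.00066). The desaturase genes Scd1 and Scd2 averaged 11.95 and 13.81 in BMP NCSC, against 11.52 and 14.02 in rNCSC, and were not called.

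Of 26 genes of fatty acid oxidation 5 were higher and 3 lower in BMP NCSC, against rNCSC and likewise against SCSC. Of the 26, 1 had a group mean under 4 and passed the filter through BMP NCSC, which fixed its direction. The carnitine transferase genes Cpt2 and Cpt1c were higher than in rNCSC by 1.86 (SE 0.30, adjusted p = 0.00043) and 1.65 (SE 0.15, adjusted p = 1.4e-05), although another tested probe set of Cpt2 was not called, and the dehydrogenase gene Acadl was lower (-1.58, SE 0.16, adjusted p = 2.1e-05). Of 15 genes of triglyceride storage, lipolysis and adipocytes 6 were higher and 2 lower than in rNCSC, with a median of 0.69, and 6 were higher and 3 lower than in SCSC. The droplet coat genes Plin3 and Plin2 were higher by 6.46 (SE 0.29, adjusted p = 1.4e-07) and 2.38 (SE 0.22, adjusted p = 1.1e-05), and Agpat2, an enzyme of triglyceride assembly, by 4.47 (SE 0.12, adjusted p = 7.3e-09). All 3 were high on every BMP NCSC array, unlike Fabp4. Plin3 and Agpat2 passed the filter only through BMP NCSC, which fixed their direction. Without BMP NCSC replicate 3, the list had 7 higher and 3 lower against rNCSC.

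Fatty acid binding proteins deliver ligands to nuclear receptors, and 11 of 18 such receptors and cofactors passed the filter. In BMP NCSC 3 were higher and 2 lower than in rNCSC, and the same counts held against SCSC. Rxra, the partner of many lipid receptors, was higher by 2.29 (SE 0.15, adjusted p = 1.5e-06) and the coactivator gene Ppargc1a was lower (-6.66, SE 0.25, adjusted p = 4.7e-08). The others called were Rarg and Ncoa2, which were higher, and Ppargc1b, which was lower. Rarg and Ppargc1b were named after their values were seen. Ppargc1a and Ppargc1b passed the filter only through rNCSC and SCSC, and Rarg only through BMP NCSC, which fixed their directions. Ppard, the receptor that Fabp5 is known to supply, averaged 5.45 ± 0.16 in BMP NCSC and 5.22 ± 0.15 in rNCSC and was not called (adjusted p = 0.10, difference 0.23). Ppara and Rxrg were under the filter, at 4.58 and 3.78 in BMP NCSC, against 4.14 and 3.59 in rNCSC. Of 8 tested targets of the peroxisome proliferator receptors 2 were higher (Plin2 and the peroxisomal enzyme gene Ehhadh) and 1 lower (Acadl) in both comparisons. Ehhadh was named after its values were seen and passed the filter only through BMP NCSC, which fixed its direction. Without BMP NCSC replicate 3, the array with the most Fabp4, 2 were higher and 3 lower against rNCSC.

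**Figure D4:**
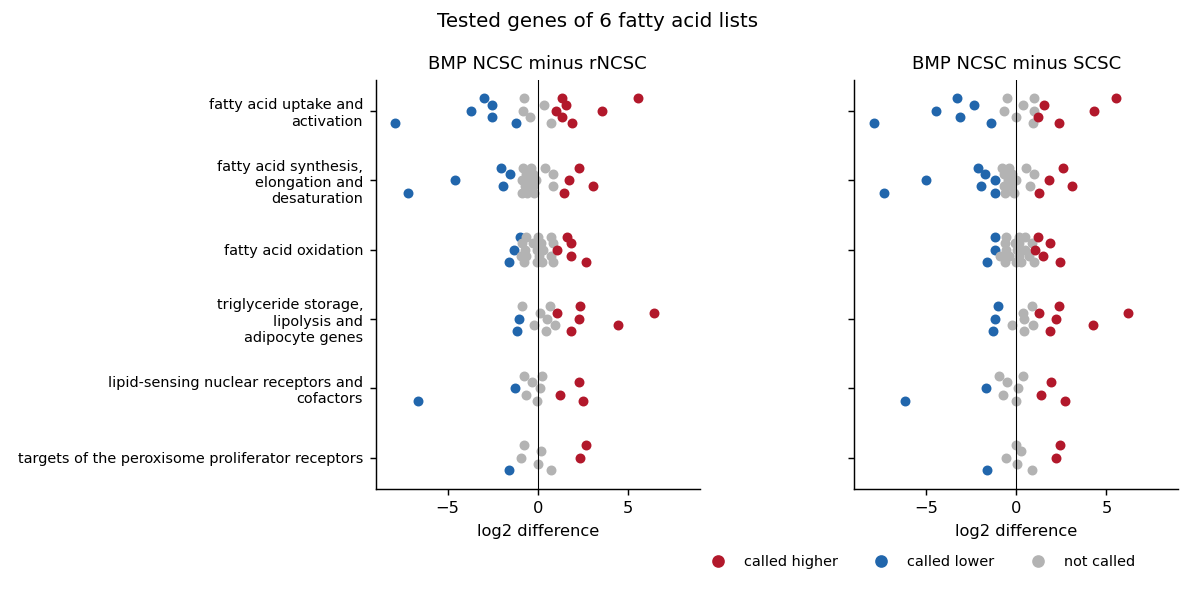
Log2 difference (horizontal axes) of each tested gene in 6 lists of fatty acid genes (vertical axis), BMP NCSC minus rNCSC on the left and BMP NCSC minus SCSC on the right, coloured by call. Every list holds called genes on both sides of 0, from -7.93 for Acsbg1 to 6.46 for Plin3 against rNCSC.

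Between rNCSC and SCSC none of the tested genes of these lists was called by limma. Over all genes 0 were higher and 1 lower in rNCSC, which is 0.00969% of those tested (0.00502% of probe sets). By the same fit 1350 of 10319 genes had an unadjusted p below 0.05. That is a larger share than such a cut gives on average where no gene differs. Small differences between these groups may thus have gone uncalled. Without rNCSC replicate 2, 1 gene of the lists was called, and 25 probe sets were called higher and 58 lower. Members differed between these groups by at most 0.16 in any of the 9 probe sets. The arrays give this similarity an error that differs by gene, from an SE of 0.12 for Fabp7 to 0.42 for Fabp3.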

How the data were processed

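The deposited table holds log2 values, 1 per probe set of an Affymetrix mouse array, made by the authors with GCRMA, per the submitters' processing notes, with a version not given in the sources used here. This method estimates background by the sequence of each probe, brings the arrays to a common distribution and combines the probes of a set. It therefore draws undetected transcripts together at low values and hides any change in total RNA per cell. Slides and scan dates were not used here, so no batch was tested. Samples were grouped by title.

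Of 45101 probe sets 64 were controls. The supplied platform annotation gave 1 symbol to 34945 and several to 932, which were left unnamed, and 9160 were unlisted. Of those named, 34741 were in the RefSeq table of GRCm38.p6, used for names, chromosomes and neighbours.

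limma 3.58.1 in R 4.3.3 fitted 3 group means to all 9 arrays on the 19914 probe sets with a value of 5 on at least 3 arrays (degrees of freedom 6 residual, 2.51 prior), with two-sided tests adjusted over them by Benjamini-Hochberg. A gene at the low end in 1 group could pass only through another, which fixes its direction. Genes named are all members, a fixed set, the 3 called list genes with the greatest difference each way among means of at least 7, and the 5 nearest profiles. The members and lists were chosen with earlier results of these data known. Simulated data for the 19914 probe sets had 200 changed in each run, found by an adjusted p below 0.05 with no limit on size. Of changes of 1, 65.8% were found for BMP NCSC minus rNCSC, 64.6% for BMP NCSC minus SCSC and 63.8% for rNCSC minus SCSC. Of changes of 2, 91.8%, 92.4% and 92.5% were found in the same order. In the data far more probe sets had such an adjusted p, 14916 in BMP NCSC minus rNCSC. These shares are therefore not recovery rates of the calls above, which also needed a difference of at least 1.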

Additional observations from a re-analysis of the deposited data

How the results depend on the processing

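The Fabp7 and Fabp5 differences of BMP NCSC from the other groups kept their sign under quantile normalization, median centring, the replicate block and each array left out, as did those of Fabp5 by its other probe set. Leaving out each array in turn gave -11.52 to -11.29 for Fabp7, -2.17 to -1.72 for Fabp5, -0.14 to 0.67 for Fabp3 and 3.41 to 7.17 for Fabp4 in BMP NCSC minus rNCSC. In BMP NCSC minus SCSC it gave -11.53 to -11.30, -2.14 to -1.69, -0.09 to 0.42 and 3.45 to 7.21. By its other probe set Fabp5 differed by -2.58 from rNCSC and -2.49 from SCSC. Fabp4, by 2 of its 3 others, differed by 0.08 and 0.21 from rNCSC and 0.24 and 0.19 from SCSC. By the third, 1451263_a_at, it differed by 5.84 from rNCSC and 5.8 from SCSC. Over all probe sets, 4101 were higher and 4334 lower in BMP NCSC than in rNCSC, and 4247 and 4741 than in SCSC. With 1 probe set a gene, which tests fewer features, these were 2335 and 2197, and 2366 and 2473. With no limit on size they were 6705 and 8211, and 6764 and 8501. Without that limit 22 synthesis, 17 oxidation, 8 receptor and 15 regulator genes were called against rNCSC, and 17 uptake, 21 synthesis, 17 oxidation, 9 receptor and 15 regulator genes against SCSC. With a filter of 7, which tests fewer genes, 3 receptor genes were called against rNCSC, and 3 receptor and 7 uptake genes against SCSC. The 1 probe set lower in rNCSC than in SCSC was 0 in a fit to the 6 arrays, with the replicate block and at an adjusted p below 0.01. Leaving out each array gave 0 to 25 higher and 0 to 58 lower there, 0 to 1 list genes, and 3 to 5 called receptor targets in BMP NCSC minus rNCSC; the upper ends are without rNCSC replicate 2 and, for the targets, without BMP NCSC replicate 3, and the cause was not tested. The titles give the same replicate numbers in each group, and the main fit did not pair the arrays by them. The 9 same-number correlations of deviations were all positive (0.054 to 0.352), and 6 exceeded 0.1. The 18 others ran from -0.338 to 0.21, and 1 exceeded 0.1. Arrays of the same number thus shared some deviation, and its source was not tested. The replicate block gave 4104 higher and 4337 lower in BMP NCSC minus rNCSC, and no list count changed. Of the recomputed values 586 stayed close to the main ones and 39 moved. The number of arrays limits the precision, and the low end of the scale limits Fabp7 in BMP NCSC and Fabp4 in the other groups.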

Other observations

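Genes outside the fatty acid lists also differed widely among the 3 BMP NCSC arrays, and were picked after their values were seen. Abi3bp, a matrix protein gene, read 9.14, 8.91 and 3.54 on replicates 1, 2 and 3, and Cthrc1, another secreted matrix protein gene, read 9.78, 9.26 and 5.23. The chemokine gene Cxcl5 read 6.23, 6.25 and 11.60, the cytokine gene Tnfsf11 read 2.87, 3.16 and 8.33, and the haptoglobin gene Hp read 4.73, 3.75 and 9.21. The neuropeptide gene Npy read 7.78, 10.67 and 6.11. On rNCSC arrays these genes read at most 3.65. The part of any of these genes in the spread of Fabp4 was not tested.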
